A study of Homo sapiens with 27 samples.

Results

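The early response of MDA-MB-231 cells to Thiamet-G, an inhibitor of O-GlcNAcase (OGA), was followed over the first day of treatment. The arrays were chosen by their labels, as the single Thiamet-G and DMSO arrays of 2, 4, 6, 8 and 24 h, which form 5 pairs and make up 10 of the 27 arrays of the series. MDA-MB-231 is an established human breast cancer line with mesenchymal features, and it was grown in DMEM with serum. The series' title concerns the transcription factor NRF2, its inhibitor KEAP1 and the sugar modification that the inhibitors alter. Thiamet-G was given at 25 µM and DMSO was the vehicle of the controls. The OGT inhibitor 5SGlcNAc (50 µM) was given to 5 further arrays of the same times, where OGT stands for O-GlcNAc transferase. A pair labelled 0 h was used to show the noise between 2 arrays, and 3 Thiamet-G and 3 DMSO arrays of 48 h gave values from other samples. The labels do not say whether the arrays came from separate cultures, so p-values reflect how far these particular arrays vary, and that variation could be technical.

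O-GlcNAc is a single sugar placed on serine and threonine residues of nuclear and cytoplasmic proteins. OGT adds it and OGA takes it off, so that inhibition of OGA lets the modification build up. The level of OGA messenger RNA is known to follow the amount of the modification in many cells, and transcription factors and kinases are among the modified proteins.

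Markers of the line were mostly but not all where its label puts them, on a scale of levels that also depends on each probe set. The mesenchymal genes VIM, CD44, AXL, CAV1, MSN, PLAU and LGALS1 had levels between percentiles 94.0 and 99.9 of 11963 genes, whereas SPARC lay at percentile 9.23. Of genes that should be low in the line, PGR, CDH1 and ESR1 lay at percentiles 4.49, 16.5 and 39.0, but ERBB2, GATA3 and EPCAM at percentiles 66.3, 67.9 and 60.9. The ACTB 3' minus 5' signal, a measure of RNA integrity, was highest at 4 h, at 1.64 (log2) with DMSO and 1.24 with Thiamet-G, and lay between 0.42 and 0.95 in the other arrays of 0 to 24 h. The same measure for GAPDH was 0.23 in both 4 h arrays and lay between 0.14 and 0.27 over the arrays of 0 to 24 h. The part of the ACTB signal in the results at 4 h was not tested. In bulk RNA, fewer cells with a transcript and less of it per cell cannot be told apart.

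Of 11963 genes, 552 (4.61%) were higher and 537 (4.49%) lower with Thiamet-G at all 5 times, and 0 passed the test of the mean difference in limma. The genes of smallest p are described first. CITED2, a coactivator that competes for the histone acetyltransferases EP300 and CREBBP, lay at 9.40, 9.39, 9.86, 9.71 and 9.77 on the log2 scale in the DMSO arrays of 2, 4, 6, 8 and 24 h. In the Thiamet-G arrays of the same times it lay at 9.85, 9.76, 9.95, 10.24 and 10.11. The Thiamet-G array was therefore the higher of each pair, least so at 6 h, and the 0 h pair differed by 0.09. The mean difference of CITED2 was 0.36 ± 0.0632 (SE, 5 pairs, adjusted p = 0.171, limma), and its dimmer probe set gave a mean of 0.36 but already differed by 0.26 at 0 h.

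EREG, the gene of the EGF receptor ligand epiregulin, lay at 9.54, 9.20, 9.87, 9.71 and 9.90 with DMSO and at 9.91, 9.81, 9.92, 10.30 and 10.41 with Thiamet-G. Its difference was small at 6 h, with 0.06, and at least 0.37 at the other 4 times. CHML, which encodes an escort protein for the prenylation of Rab proteins, had the smallest p of all genes, with differences of 0.30, 0.53, 0.30, 0.36 and 0.28. Their means were 0.43 ± 0.0762 for EREG and 0.35 ± 0.0505 for CHML (SE, adjusted p = 0.171 and 0.114, limma). The CHML arrays were higher by a similar amount at each time, and those of EREG by amounts that varied more.

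TGFB2 and BMP4 encode secreted growth factors of the TGF-beta family. TGFB2 was higher by 0.15, 0.38, 0.13, 0.54 and 0.42, and BMP4 by 0.31, 0.31, 0.24, 0.16 and 0.25. TGFB2 differed most at 8 and 24 h and BMP4 at 2 and 4 h. ADAMTS1, a secreted metalloprotease, lay at 10.95, 11.14, 11.39, 11.18 and 10.98 with DMSO and at 11.47, 11.38, 11.47, 11.58 and 11.49 with Thiamet-G, a mean difference of 0.35 ± 0.0679 (SE, adjusted p = 0.192, limma). KANK1, which encodes a regulator of actin and focal adhesions, gave differences of 0.17, 0.55, 0.33, 0.34 and 0.32, but also -0.21 at 0 h. The second brightest probe set of TGFB2 differed by 0.32 at 8 h and 0.01 at 24 h, and by 0.23 at 0 h. Of 14 measured TGF-beta, BMP and ID genes, 3 were higher and 1 lower at all 5 times, against 4.61% and 4.49% of all genes.

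Lower at all 5 times was CDKN1A, which encodes the cyclin-dependent kinase inhibitor p21. It lay at 11.22, 11.84, 11.39, 11.28 and 11.06 with DMSO and at 10.96, 11.11, 11.09, 10.79 and 10.82 with Thiamet-G, while the 0 h arrays lay at 10.83 and 10.85. The DMSO arrays thus rose above their 0 h level to a peak at 4 h, and the Thiamet-G arrays stayed within 0.3 of theirs. The mean difference was -0.41 ± 0.0744 (SE, adjusted p = 0.171, limma). With 5SGlcNAc the difference of CDKN1A from DMSO was 0.05, -0.35, 0.22, -0.15 and 0.07, and both inhibitors share the DMSO arrays.

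NEU1, the lysosomal sialidase, was lower by an amount that was largest at 24 h. It lay at 10.21, 10.25, 10.41, 10.33 and 10.33 with DMSO and at 10.16, 9.96, 10.15, 9.98 and 9.76 with Thiamet-G, a mean difference of -0.31 ± 0.0597 (SE, adjusted p = 0.192, limma). The zinc finger gene ZNF329 differed by -0.24, -0.49, -0.42, -0.31 and -0.59, and SUSD6 by -0.15, -0.48, -0.28, -0.19 and -0.39. The dim gene CFAP44, which encodes a protein of cilia and flagella, had a mean of -0.34. These 5 genes had the smallest p among lower means.

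**Figure D1:**
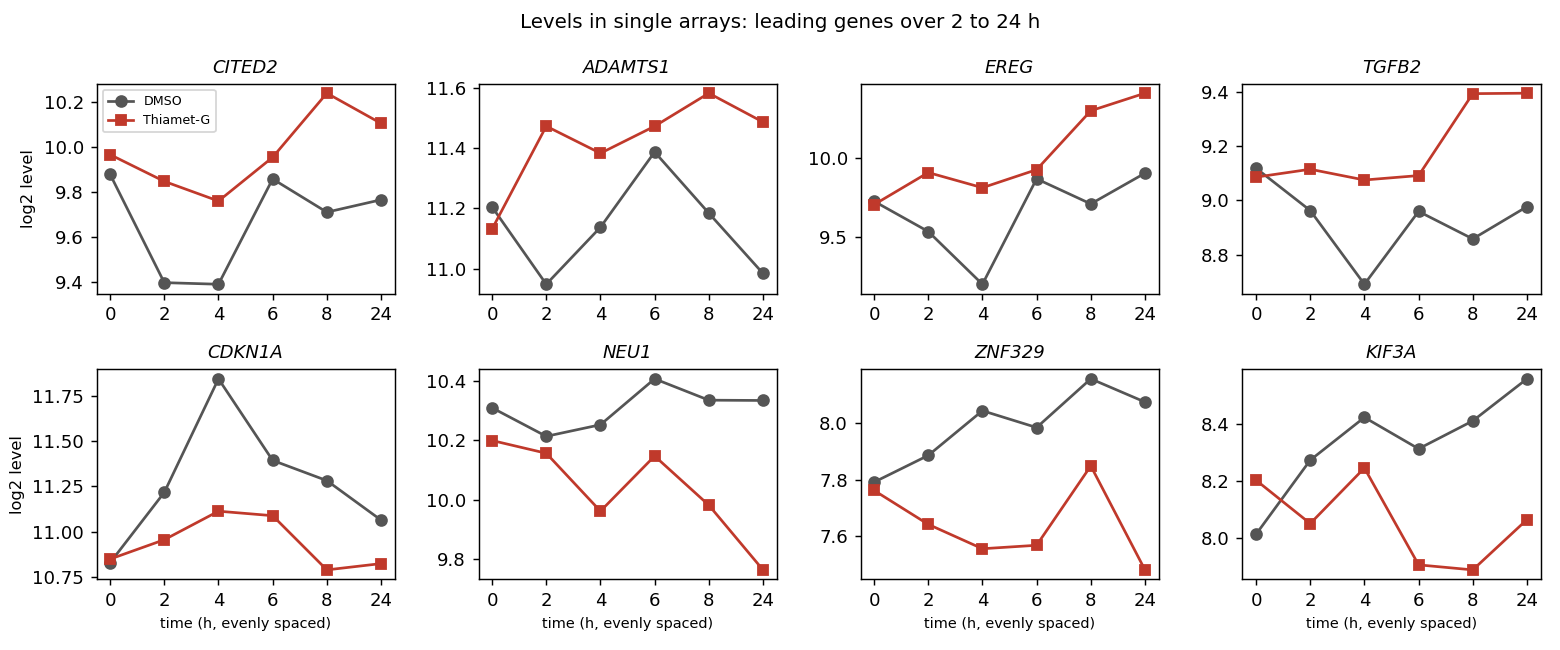
Levels of 8 genes (log2, y axis with its own range in each panel) in single arrays of DMSO (grey circles) and Thiamet-G (red squares) at 0, 2, 4, 6, 8 and 24 h; the time axis is evenly spaced and not to scale, and there are no error bars because each point is 1 array. The Thiamet-G arrays lie above the DMSO arrays at all 5 times after 0 h for CITED2, ADAMTS1, EREG and TGFB2, and below them for CDKN1A, NEU1, ZNF329 and KIF3A.

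The mean over 2 to 24 h was tested in limma with the 5 times in place of replicates and the 5SGlcNAc arrays adding to the estimate of the spread. Of 11963 genes, 0 (0%) passed an adjusted p of 0.05, and 1111 (9.29%) had an unadjusted p under 0.05, of which 551 (4.61%) were higher and 560 (4.68%) lower. Without dim genes 10 passed, with CITED2, EREG, CHML, KANK1, TGFB2, BMP4 and RIF1 higher and SUSD6, CDKN1A and ZNF329 lower, and 20 passed with trend and robust variance, 9 of them in common. The other alternatives for this mean, among them only the 10 arrays and leaving out each time, gave 0. A growth of the difference with time was called for 0 genes (0%, limma slope per doubling of hours, 770 or 6.44% with an unadjusted p under 0.05, smallest adjusted p = 0.625). The smallest p of the slope belonged to ELAPOR1, CYP4F11 and AURKC among upward slopes and to IFT81, ETNK1 and C1RL among downward ones, and these 6 genes were not called at 48 h in limma.

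The number of genes that differed within a pair did not grow evenly with time. The SD of the difference over genes was 0.138 in the 0 h pair and 0.150, 0.194, 0.143, 0.192 and 0.185 at 2, 4, 6, 8 and 24 h. Genes past 1.5-fold numbered 26 at 0 h (0.217%), 25 at 2 h (0.209%), 98 at 4 h (0.819%), 10 at 6 h (0.0836%), 79 at 8 h (0.66%) and 66 at 24 h (0.552%). The pairs of 2 and 6 h thus lay close to the 0 h pair, and those of 4, 8 and 24 h above it. At 8 h, 60 of the 79 were lower (0.502% of all genes), and at 24 h 42 of the 66 were higher (0.351%). Of these, 2 at 8 h and 0 at 24 h lay at or above the median level.

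Among the 5982 genes at or above the median level, the direction by time was different. At 0.3 or more on the log2 scale, which is 1.23-fold, 9 were higher and 13 lower in the 0 h pair. At 2 h 48 were higher and 17 lower, at 4 h 173 and 256, at 6 h 24 and 53, at 8 h 274 and 66, and at 24 h 57 and 201. The brighter genes past 0.3 were therefore mostly higher at 8 h and mostly lower at 24 h. Genes below the median level went the other way, with 285 higher and 725 lower at 8 h and 639 and 335 at 24 h. At each time most of the 5982 brighter genes differed by less than 0.3. The extremes among the brighter genes were IL6 (0.62) and EGR1 (-0.65) at 2 h, ACSL4 (0.67) and ATF3 (-1.51) at 4 h, PDE1C (0.51) and PIGH (-0.55) at 6 h, NRG1 (0.76) and LLGL1 (-0.72) at 8 h, and WNT6 (0.56) and RAB40B (-0.88) at 24 h. ACSL4, PDE1C and LLGL1 were named after their values were seen.

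**Figure D2:**
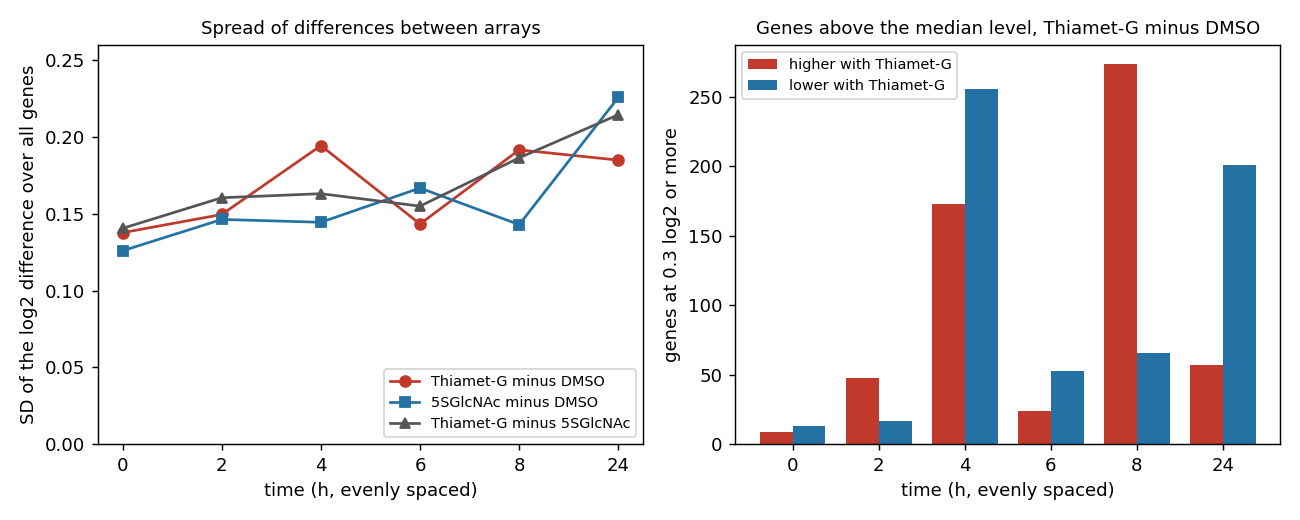
Left, SD of the log2 difference over 11963 genes for 3 pairings of single arrays, by time (h); right, number of genes at or above the median level that differ by 0.3 or more between Thiamet-G and DMSO in each direction. The time axes are evenly spaced and there are no error bars, since each time has 1 array per treatment. The Thiamet-G minus DMSO spread is lowest at 0 h (0.138) and 6 h (0.143). The brighter genes that differ by 0.3 or more are mostly higher at 8 h (274 against 66) and mostly lower at 24 h (201 against 57).

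The onset of a gene was taken as the first time from which its difference was at least 0.3 in 1 direction at that and every later time up to 24 h, so a late onset has fewer times to meet and the rule itself favours 24 h. No gene had its onset at 2 h. At 4 h it was KANK1 that was higher, and FGFR3, GUCY1B1, PIGH, TAF12, TRIM52 and ZNF329 that were lower. At 6 h EPB41L4B, IL7R, NRG1, RASGRP3, TFEC and ZNF154 were higher and ENPP4, KIF3A and NAP1L3 lower. At 8 h 44 genes were higher and 39 lower, and at 24 h 645 and 488. Each gene of the 24 h count meets the threshold in the 24 h pair without having met it in that direction at 8 h, so the count rests on that pair alone, and the 0 h pair alone had 552 genes (4.61%) at 0.3 or more. With 5SGlcNAc, set against the same DMSO arrays, the onset counts were 1 higher and 0 lower at 4 h, 4 and 1 at 6 h, 15 and 24 at 8 h and 910 and 1088 at 24 h.

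NRG1, which encodes the ERBB3 and ERBB4 ligand neuregulin, had its onset at 6 h. It lay at 10.53, 10.30, 9.99, 9.78 and 10.49 with DMSO and at 10.62, 10.45, 10.31, 10.54 and 10.94 with Thiamet-G. The DMSO arrays dipped to their lowest level at 8 h and the Thiamet-G arrays did not. Its difference of 0.76 at 8 h was 0.16, 0.15, 0.03, 0.44 and -0.05 in its 5 dimmer probe sets. KIF3A, a subunit of the kinesin of intraflagellar transport, lay at 8.27, 8.42, 8.31, 8.41 and 8.56 with DMSO and at 8.05, 8.25, 7.91, 7.89 and 8.07 with Thiamet-G. EPB41L4B gave 0.04, 0.20, 0.40, 0.47 and 0.33, and PIGH, an enzyme subunit of GPI anchor synthesis, gave 0.07, -0.31, -0.55, -0.53 and -0.54. By their brightest probe sets NRG1, KIF3A, EPB41L4B and PIGH moved in steps over 4 to 8 h and did not differ by 0.3 at 2 h. The dimmer probe set of EPB41L4B gave 0.26, 0.07, 0.34, -0.04 and 0.36, without steps. That of ENPP4 gave -0.55, -0.22 and -0.16 at 6, 8 and 24 h.

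Onset at 8 h was found for CITED2, EREG, TGFB2, ADAMTS1 and NEU1, described above, and for IGFBP1, which encodes an insulin-like growth factor binding protein. CITED2 (0.45), EREG (0.37) and ADAMTS1 (0.52) had already passed 0.3 at 2 h, and TGFB2 (0.38) at 4 h. At 6 h CITED2, EREG, ADAMTS1 and TGFB2 differed by only 0.10, 0.06, 0.09 and 0.13, so the rule could not place their onset before 8 h. IGFBP1 gave 0.20, 0.19, 0.16, 0.52 and 0.46. Among falls, VIPAS39 gave 0.03, -0.41, -0.28, -0.41 and -0.42, C3orf18 gave -0.04, -0.24, 0.04, -0.62 and -0.40, and SERPINI1, the gene of the inhibitor neuroserpin, gave -0.16, -0.40, -0.20, -0.40 and -0.67. For SERPINI1 and VIPAS39 the 4 h value was already as low as that of 8 h, and the smaller value at 6 h set the onset later.

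Several of the lowest differences at 24 h came after hours of smaller ones. PCYOX1L, which encodes a protein similar to prenylcysteine oxidase, lay at 7.92, 8.03, 7.93, 7.82 and 8.05 with DMSO and at 7.89, 7.78, 7.72, 7.66 and 7.05 with Thiamet-G, so that its difference of -1.01 at 24 h followed differences of -0.03 to -0.26. RAB40B, a Rab-like subunit of ubiquitin ligases, differed by 0.08, -0.12, -0.11, -0.17 and -0.88, RNFT2 by 0.09, -0.32, -0.21, -0.00 and -0.75, and ACOT13, an acyl-CoA thioesterase, by 0.03, -0.27, -0.13, -0.17 and -0.69. The dimmer probe set of RAB40B differed by 0.03 at 24 h and that of RNFT2 by -0.25. GUCY1B1, a subunit of soluble guanylate cyclase, lay at 6.07, 6.63, 6.83, 7.05 and 7.16 with DMSO and at 6.41, 6.30, 6.42, 6.32 and 6.37 with Thiamet-G. Here the DMSO arrays climbed and the Thiamet-G arrays kept their level. The highest differences at 24 h among brighter genes were WNT6 (0.56), THBS1 (0.53) and SNORA21 (0.51), and the same genes were higher with 5SGlcNAc at 24 h by 0.63, 0.76 and 0.73 against the same DMSO array.

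The arrays of 48 h were other samples with other DMSO controls, taken from their values as processed apart, and showed which early differences recurred. At 48 h, 400 of 11963 genes changed with Thiamet-G (3.34%, limma, adjusted p under 0.05), 55 up (0.46%) and 345 down (2.88%). Genes that fell made up 86.3% of these calls, and 73.9% or 75% when arrays were first quantile normalized or median centred. The count fell to 100 without DMSO replicate 3, was 683 without Thiamet-G replicate 2 and lay between 121 and 172 without any other 1 of the 6 arrays.

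The 55 genes that rose at 48 h had median differences of -0.05 at 0 h and of 0.09, 0.09, 0.04, 0.24 and 0.19 at 2, 4, 6, 8 and 24 h. The share with a positive sign was 30.9% at 0 h, 85.5% at 2 h, 56.4% at 4 h, 63.6% at 6 h, 94.5% at 8 h and 87.3% at 24 h. These genes thus stood above DMSO most clearly at 8 h. The 345 genes that fell at 48 h had medians of -0.04 at 0 h and of -0.0030, -0.15, -0.03, -0.08 and -0.23 at the later times, and 94.8% were lower at 24 h. Their 2 h median became 0.02 after median centring. The medians of all genes lay between -0.02 and 0.02 in every pair.

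**Figure D3:**
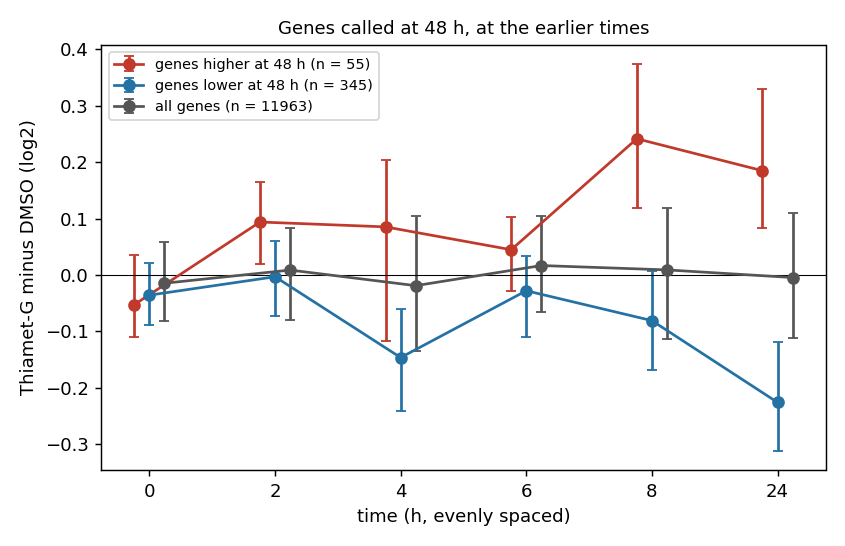
Thiamet-G minus DMSO difference (log2, y axis) in the pairs of 0 to 24 h for the genes that rose (red, 55) or fell (blue, 345) at 48 h and for all 11963 genes (grey); points are medians over genes, bars run from the lower to the upper quartile over genes, and the time axis is evenly spaced. The genes that rose reach a median of 0.24 at 8 h, and the genes that fell reach -0.23 at 24 h.

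Seen from the early side, genes with an unadjusted p under 0.05 for the mean over 2 to 24 h mostly kept their sign. Of the 551 that were higher, 78.9% were higher at 48 h too, against 45.8% of all genes, and 20 were called as risen. Of the 560 that were lower, 83.9% were lower at 48 h, against 54.2% of all genes, and 103 (18.4%) were called as fallen. Of the 536 genes (4.48%) lower by 0.3 or more at 24 h, 102 (19.0%) were called as fallen at 48 h, against 0.719% of the 278 genes (2.32%) lower by as much in the 0 h pair. Below the median level lay 335 of the 536 but 265 of the 278, so these shares compare genes of unlike level. For the 696 genes (5.82%) higher at 24 h the called share was 2.44%, and 639 of them lay below the median level.

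Across the 5982 brighter genes, the difference at 48 h correlated with that of the pairs of 0, 2, 4, 6, 8 and 24 h with r = 0.01, 0.31, 0.36, -0.02, 0.51 and 0.49. Between pairs of the first day r was 0.40 for 2 and 8 h, 0.36 for 8 and 24 h, 0.34 for 4 and 8 h, and -0.06 for 2 or 4 h with 6 h. The points are genes of single arrays that share probe design and normalization and are not independent. The pair of 6 h was thus unlike those of 2 and 4 h, but had r = 0.26 with 24 h and 0.15 with 8 h.

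Several leading early genes changed at 48 h. CITED2 rose from 10.66 ± 0.114 to 11.08 ± 0.0651 (SD, n = 3, difference 0.42, adjusted p = 0.0129, limma), and ADAMTS1 rose from 11.29 ± 0.0503 to 11.76 ± 0.0777 (adjusted p = 0.00601, limma). NRG1 rose by 0.37, IGFBP1 by 0.37 and EPB41L4B by 0.24. The dimmer probe sets of NRG1 differed by -0.0033, 0.10, -0.02, 0.18 and 0.13 at 48 h, and that of EPB41L4B by 0.15. CDKN1A fell from 11.08 ± 0.0757 to 10.73 ± 0.0503 (adjusted p = 0.0177, limma), and KIF3A fell by 0.36 and SERPINI1 by 0.42. PCYOX1L fell from 8.36 ± 0.01 to 7.41 ± 0.121, GUCY1B1 fell by 0.75, RNFT2 by 0.71, RAB40B by 0.65 and ACOT13 by 0.48. The dimmer probe set differed by -0.52 for GUCY1B1, -0.58 for RNFT2 and only -0.17 for RAB40B. EREG (0.15, adjusted p = 0.438), TGFB2 (0.32, adjusted p = 0.0764), BMP4 (0.06), CHML (0.24) and NEU1 (-0.23, adjusted p = 0.0964) did not pass at 48 h in limma. The difference between the effect at 48 h and the mean effect of 2 to 24 h passed for 0 of 11963 genes (0%, limma, 771 or 6.44% with an unadjusted p under 0.05), and for 1 after quantile normalization.

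Other genes among the largest changes at 48 h had early differences of mixed sign or size. SPP2 rose by 0.54 at 48 h and differed by 0.05, 0.19, -0.34, 0.24 and -0.19 before, and THBS1, a secreted matrix glycoprotein, rose by 0.50 and differed by -0.08, 0.51, -0.19, 0.10 and 0.53. The 4 other THBS1 probe sets differed by 0.11, 0.12, 0.36 and 0.14 at 48 h. TMEM187 fell by 0.69 at 48 h and was lower at all 5 early times, by values of -0.09, -0.13, -0.43, -0.46 and -0.20. IFT27, a small GTPase of intraflagellar transport, fell by 0.69 and differed by -0.15, -0.27, 0.15, -0.42 and -0.58. The dimmer probe set of IFT27 differed by 0.26 at 24 h and by -0.0033 at 48 h.

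The messenger RNA of the inhibited enzyme itself was higher from 8 h. OGA lay at 10.55, 10.66, 10.97, 10.82 and 10.74 with DMSO and at 10.64, 10.65, 11.05, 11.29 and 10.90 with Thiamet-G, so that the difference was 0.09, -0.01, 0.07, 0.47 and 0.16. Its second probe set gave 0.05, -0.06, 0.24, 0.53 and 0.40, and the dimmest 0.48 and 0.38 at 8 and 24 h. The 8 h pair was thus the first to stand apart, and by 48 h OGA had risen from 10.97 ± 0.0451 to 11.60 ± 0.0493 (SD, n = 3, adjusted p = 0.000922, limma). The mean of 2 to 24 h was 0.16 ± 0.260 (SE, adjusted p = 0.907, limma) in the fit with the 5SGlcNAc arrays, in which OGA differed from DMSO by -0.61, -0.91 and -2.05 at 6, 8 and 24 h. With only the 10 arrays the SE was 0.0712 and the adjusted p = 0.588 (limma).

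OGT gave no single direction. Its brightest probe set differed by 0.04, -0.41, -0.29, -0.18 and -0.17. At 24 h the next 3 probe sets by brightness differed by 0.25, 0.22 and 0.26. At 4 h these 4 probe sets lay between -0.37 and -0.45. Of 8 measured genes that make, add or remove O-GlcNAc, 0 passed over 2 to 24 h in limma, and at 48 h OGA rose and OGT by its brightest probe set fell, by 0.24. The next 3 OGT probe sets differed by 0.17, 0.09 and 0.15 at 48 h. RENBP, a renin binding protein with epimerase activity, differed by 0.31 and NAGK, a kinase that salvages GlcNAc, by -0.19 at 24 h.

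**Figure D4:**
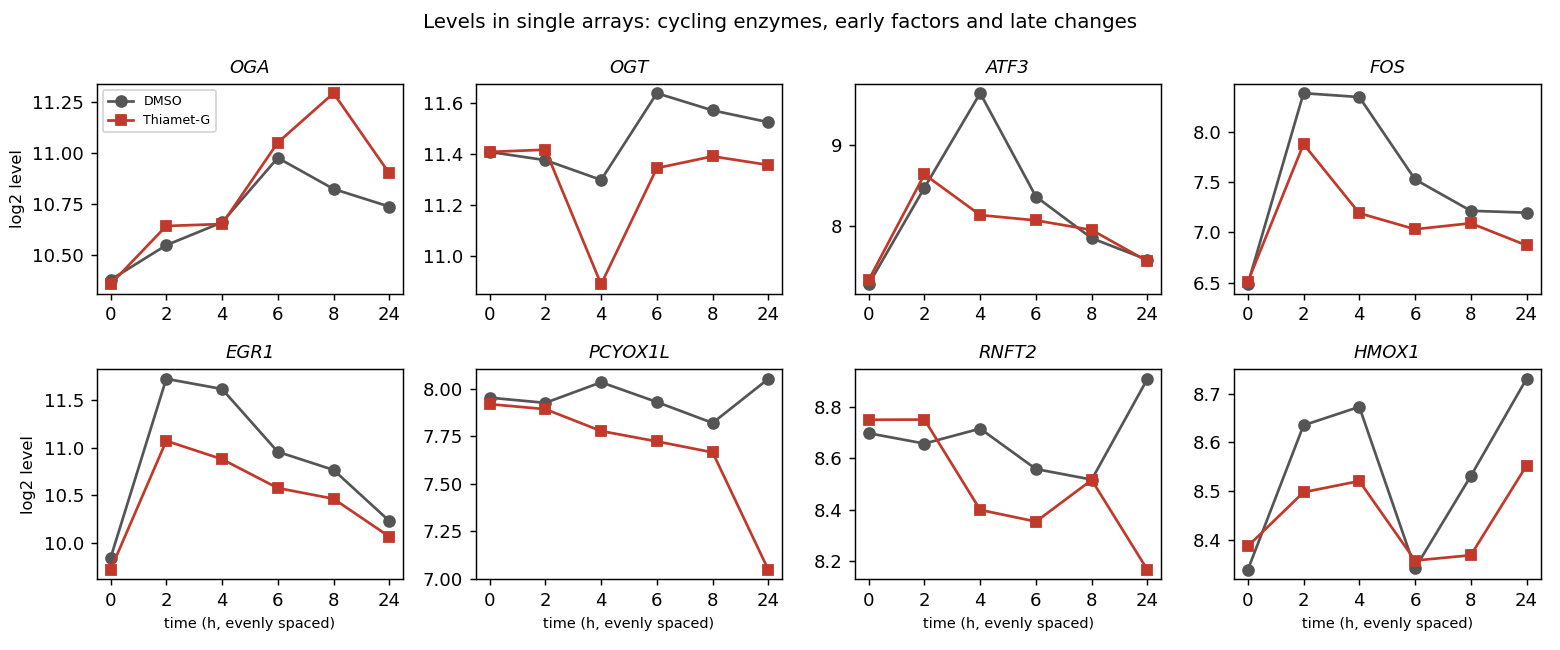
Levels of 8 genes (log2, y axis with its own range in each panel) in single arrays of DMSO (grey circles) and Thiamet-G (red squares) at 0, 2, 4, 6, 8 and 24 h; the time axis is evenly spaced, and each point is 1 array. OGA parts at 8 h (10.82 with DMSO, 11.29 with Thiamet-G), ATF3, FOS and EGR1 peak at 2 to 4 h and lie lower with Thiamet-G at 4 h, PCYOX1L parts at 24 h, and HMOX1 stays within 0.18 of DMSO.

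The transcription factor genes ATF3, FOS and EGR1 belong to the immediate early genes, which cells switch on within minutes to hours of a stimulus or a handling step. In both series they lay above their 0 h level at 2 and 4 h, and they were lower with Thiamet-G at 4 h. ATF3 lay at 7.28 in the DMSO array of 0 h and at 8.47, 9.65, 8.36, 7.85 and 7.58 at the later times, and with Thiamet-G at 7.33, 8.64, 8.14, 8.07, 7.95 and 7.56. FOS lay at 8.38, 8.34, 7.52, 7.21 and 7.19 with DMSO and at 7.88, 7.19, 7.03, 7.09 and 6.87 with Thiamet-G. EGR1 lay at 11.73, 11.62, 10.96, 10.77 and 10.23 with DMSO and at 11.07, 10.88, 10.58, 10.46 and 10.07 with Thiamet-G. FOS and EGR1 were thus lower at all 5 times, and ATF3 only in the pairs of 4, 6 and 24 h. The adjusted p of their means was 0.752 for ATF3, 0.436 for FOS and 0.359 for EGR1 (limma).

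The 4 h differences of ATF3 (-1.51), FOS (-1.15), EGR1 (-0.74) and EGR3 (-0.76) went with -1.10 for the cytokine IL11, -0.88 for the inhibitor of differentiation ID4 and -0.65 for the ligand TNFSF9. With 5SGlcNAc the 4 h difference from the same DMSO array was -0.31 for ATF3, -0.60 for FOS, -0.12 for EGR1, 0.00 for EGR3 and -0.59 for IL11. At 48 h the direction was the opposite for ATF3, which rose by 0.54 (adjusted p = 0.00485, limma), and EGR1, which rose from 10.99 ± 0.0379 to 11.35 ± 0.0346 (SD, n = 3, adjusted p = 0.00847, limma). Of 25 measured members of the list 0 passed over 2 to 24 h in limma. At all 5 times 4 were higher and 4 lower, against 4.61% and 4.49% of all genes. The list median at 4 h was -0.14. At 48 h 4 members rose, against 0.46% of all genes. The 4 h pair is the one with the high ACTB 3' minus 5' signals.

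The NF-kB list holds inflammatory mediators and their inhibitors, and some of its genes were higher in the single pair of 2 h. The chemokine genes CXCL1 and CXCL8 differed by 0.74 and 0.51 at 2 h, the cytokine gene IL6 by 0.62 and TNFAIP3, an inhibitor of the pathway, by 0.43. In the DMSO series CXCL1 had gone from 7.91 at 0 h to 7.07 at 2 h and TNFAIP3 from 8.43 to 7.98, whereas with Thiamet-G they went from 7.75 to 7.81 and from 8.26 to 8.41. The largest absolute mean difference of the list over 2 to 24 h was that of IL11, which was lower at 4 h, as given above. The list median was 0.14 at 2 h, -0.03 at 4 h, 0.12 at 6 h, 0.07 at 8 h and 0.06 at 24 h, against medians of all genes of -0.02 to 0.02. Over 2 to 24 h 0 of 22 members passed in limma. At all 5 times 4 were higher and 1 lower, against 4.61% and 4.49% of all genes. At 48 h 1 rose, against 0.46% of all genes, which was IL6 by 0.24.

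The ERK feedback list holds genes linked to that pathway, some of whose products restrain it. SPRY1, which encodes a Sprouty inhibitor of receptor signalling, lay at 9.14, 9.23, 9.63, 9.67 and 9.73 with DMSO and at 9.69, 9.88, 9.83, 9.90 and 9.71 with Thiamet-G. The 0 h arrays lay at 9.86 and 9.85, so that the DMSO level was lower at 2 and 4 h and the Thiamet-G level stayed near its start. SPRY2 differed by 0.26, 0.11, 0.07, 0.29 and 0.17, and the phosphatase gene DUSP6 by 0.29, 0.30, -0.14, 0.22 and 0.05. The median of the 13 members was 0.11, 0.11, -0.02, 0.13 and -0.01, and 0 passed over 2 to 24 h or at 48 h in limma.

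NRF2 targets, the genes of the series' title, did not differ by a steady amount. Of 36 measured members 0 passed over 2 to 24 h in limma, and the median of the mean differences was -0.01. At all 5 times 2 were higher and 1 lower, against 4.61% and 4.49% of all genes. HMOX1, which degrades haem, differed by -0.14, -0.15, 0.02, -0.16 and -0.18, with a mean of -0.12 (95% confidence interval -0.77 to 0.52). The fit includes the 5SGlcNAc arrays, in which HMOX1 differed from DMSO by 2.31 at 24 h, and with only the 10 arrays the SE was 0.0525. NQO1, a quinone reductase, differed by 0.14, -0.13, -0.08, -0.04 and -0.07, with an interval of -0.17 to 0.09 for the mean. GCLC, the catalytic subunit of glutathione synthesis, differed by -0.01, 0.00, -0.22, -0.26 and -0.32, and its partner GCLM by 0.07, 0.12, -0.17, 0.03 and -0.14.

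The mean difference was 0.06 for the cystine transporter gene SLC7A11, -0.03 for the reductase gene TXNRD1, -0.03 for TXNIP, 0.04 for NFE2L2, the gene of NRF2, and 0.01 for KEAP1. The interval was -0.07 to 0.14 for NFE2L2 and -0.09 to 0.10 for KEAP1. The largest 24 h values of the list were -0.46 for AKR1B10, an aldo-keto reductase, and -0.42 for PGD, of the pentose phosphate pathway, and AKR1B10 is dim. At 48 h 0 of the 36 passed either.

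The remaining lists had 0 members called over 2 to 24 h in limma, and their medians by time are described beside the same over all genes, which lay between -0.02 and 0.02. Most of these lists had a median level above the 8.16 of all genes. Brighter genes at 0.3 or more were mostly higher at 8 h (274 against 66) and mostly lower at 24 h (201 against 57). At 4 h the interferon list had a median of -0.27 over 27 genes, with OASL at -1.23 and IFIT2 at -1.05. Its median was 0.09 at 6 and at 8 h and 0.07 at 48 h. There 1 of the 27 fell, IRF7 by 0.28, against 2.88% of all genes. The histone list had -0.32 at 4 h and 0.23 at 48 h, where 2 of 8 rose, against 0.46% of all genes. At the other early times the histone median lay between -0.06 and -0.01, so both lists lay lowest at 4 h, the pair with the high ACTB signals.

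ER chaperones and genes of the unfolded protein response had medians of -0.02, -0.02, -0.10, -0.07 and -0.08 over 18 genes. At 48 h the median was -0.12 and 3 of the 18 fell, against 2.88% of all genes. In this list, SDF2L1 differed by 0.07, -0.43, -0.09, -0.21 and -0.36 and fell by 0.35 at 48 h. The lysosome list had medians of -0.01, -0.13, -0.01, -0.05 and -0.11 over 24 genes. In addition to NEU1, the acid lipase gene LIPA differed by -0.38 at 24 h, and CTSA, which encodes the protective protein of NEU1, had a mean of -0.11. At 24 h 4 members of that list were lower by 0.3 or more and 0 higher, against 4.48% and 5.82% of all genes. The median level of the list was 10.9, and of the 5982 brighter genes 201 were lower and 57 higher by as much.

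At 8 h, ribosome biogenesis, the CLK kinases and SR splicing factors, and TGF-beta, BMP and ID genes each had a median of 0.15, and p53-linked stress genes 0.14. The median levels of these lists were 11.2, 11.6, 8.79 and 9.38, and brighter genes at 0.3 or more were mostly higher at 8 h. WDR43, of the small subunit processome, differed by 0.51 and CLK1, a kinase of splicing factors, by 0.50. At 24 h the p53-linked list had -0.10. Its member ZMAT3 differed by -0.32 and GDF15 by -0.52 at 24 h, and CDKN1A fell at 48 h. The matrix and mesenchymal transition list had 0.09 at 8 h and 0.11 at 24 h over 29 genes. Of these, 5 were higher and 1 lower at all 5 times, against 4.61% and 4.49% of all genes. At 48 h 1 rose and 3 fell, against 0.46% and 2.88% of all genes. The transcription factor gene SNAI2 of this list had a mean of 0.19 and CDH2, the neuronal cadherin gene, 0.24, with 0 h differences of -0.16 and -0.40.

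Metallothioneins, which bind zinc and copper, had -0.13 at 24 h, with MT1X at -0.32. Cholesterol synthesis had -0.10 at 4 h, -0.09 at 8 h and 0.07 at 24 h, and PMVK, a kinase of the mevalonate pathway, differed by -0.48 at 24 h and fell by 0.44 at 48 h. DNA replication (36 genes), mitosis (33) and the proteasome (26) had medians at 8 h of 0.07, 0.08 and 0.04. Heat shock genes had 0.06 at 8 h, and 1 of 13 rose at 48 h, CHORDC1 by 0.27, against 0.46% of all genes. For ATF4 and amino acid response, hypoxia and glycolysis, glucocorticoid targets and the circadian clock the medians at 24 h were -0.07, 0.02, 0.02 and -0.09.

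Of marker lists of other cells, 8 haematopoietic genes had medians of 0.05, 0.06, 0.10, -0.14 and 0.10, and their summed linear level was 586 to 614 with DMSO and 548 to 651 with Thiamet-G. For 13 fibroblast genes it was 2181 to 2268 and 2108 to 2385, and for 18 luminal genes 19766 to 24983 and 21140 to 24573. The groups of arrays overlapped for each of these lists, with PTPRC and PGR among the lowest genes of the arrays. No member passed over 2 to 24 h.

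**Figure D5:**
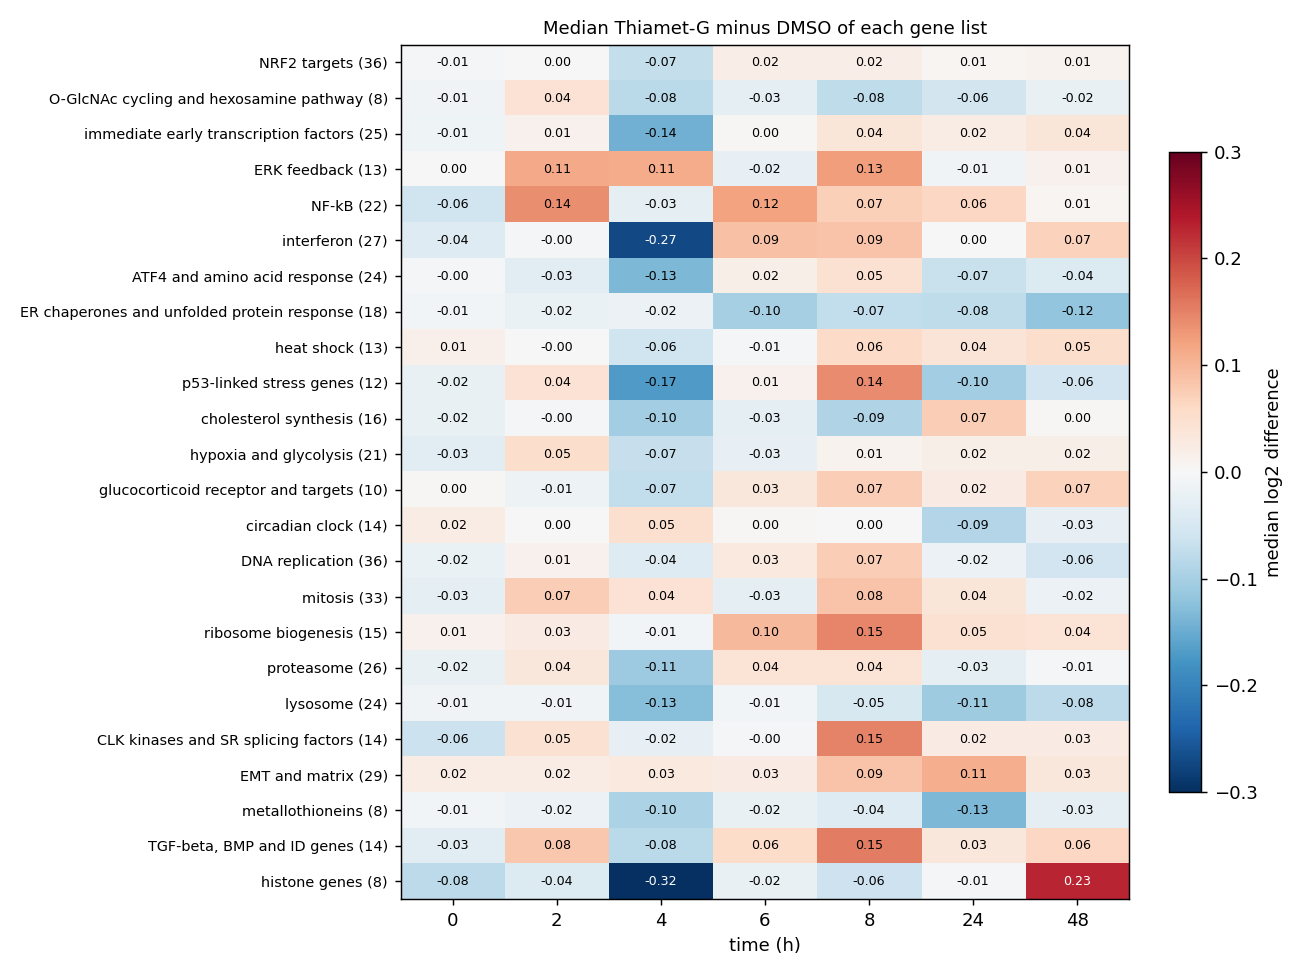
Median Thiamet-G minus DMSO difference (log2, colour and printed value) of 24 gene lists in rows, with the number of measured genes, at 0, 2, 4, 6, 8, 24 and 48 h in columns; columns of 0 to 24 h are 1 pair of arrays each, and the column of 48 h is a mean of 3 against 3 arrays. The interferon and histone lists lie lowest at 4 h (-0.27 and -0.32), and the 0 h column runs from -0.08 to 0.02.

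The contrast with 5SGlcNAc, which acts on the opposite enzyme, sets the inhibitors against each other. The DMSO arrays do not enter this difference, but they do enter the estimate of its spread. Over 2 to 24 h, 31 of 11963 genes differed between the inhibitors (0.259%, limma, adjusted p under 0.05), 21 higher (0.176%) and 10 lower (0.0836%) with Thiamet-G. The number fell to between 0 (without 6 h) and 9 (without 2 h) when a time was left out, with 1 without 4 h and 3 without 8 or 24 h. SPRY1 was higher with Thiamet-G by 0.55 ± 0.0868 (SE, adjusted p = 0.0269, limma), TGFB2 by 0.40, KANK1 by 0.40, CHML by 0.37 (adjusted p = 0.0161) and CITED2 by 0.37 (adjusted p = 0.0389). Lower were ZNF329 (-0.42), NEU1 (-0.35, adjusted p = 0.0389) and the brightest OGT probe set (-0.78, adjusted p = 0.0483). The transcription factor gene FOSL2 was higher and TNFSF9 and the transporter gene ABCC5 lower, and these were named after their values were seen.

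Set side by side, and sharing the DMSO arrays, the mean differences from DMSO were 0.36 with Thiamet-G and -0.01 with 5SGlcNAc for CITED2, 0.35 and -0.01 for CHML, 0.32 and -0.08 for TGFB2, 0.33 and -0.22 for SPRY1, and -0.31 and 0.04 for NEU1. In other genes that passed between the inhibitors the difference with 5SGlcNAc was the larger. The brightest OGT probe set had means of -0.20 with Thiamet-G and 0.57 with 5SGlcNAc. BCOR had 0.19 and -0.30, ZNF551 0.16 and -0.33, and UGT8 0.06 and -0.30, and these were named after their values were seen. For OGA the means were 0.16 and -0.71, a difference that did not pass between the inhibitors (adjusted p = 0.169, limma). CDKN1A (adjusted p = 0.0694) and EREG (adjusted p = 0.0917) did not pass either. With 5SGlcNAc against DMSO the mean over 2 to 24 h passed for 0 genes (0%, limma, 524 or 4.38% with an unadjusted p under 0.05).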

How the data were processed

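Total RNA was hybridised to Affymetrix arrays, and the authors deposited log2 levels of 22277 probe sets. The submitters' processing notes name RMA, without a version. RMA gives arrays processed together the same distribution, so a shift shared by most genes may not show. The labels do not say which arrays were processed together. The arrays of 0 to 24 h and of 48 h had medians of 7.43 to 7.53 and 7.68 to 7.76, and their values carried different numbers of decimals. They were therefore taken as processed apart, and their levels were not compared. Of the probe sets, 19064 named 1 gene and 19052 were updated through Entrez identifiers, 1043 named several genes, 2108 none and 62 were controls. Each of 11963 genes was represented by its brightest probe set over the 15 arrays of 2 to 24 h, with no filter on dim genes.

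Two-sided tests were made in R 4.3.3 with limma 3.58.1 (lmFit, eBayes), and p-values were adjusted by Benjamini and Hochberg over all genes at 0.05. Over 2 to 24 h, 15 arrays were fitted with time as a block (8 residual degrees of freedom, median SE 0.0632), and at 48 h 9 arrays (median SE 0.0617). DMSO and Thiamet-G arrays of the same time deviated together from their group means (r over genes of 0.16 to 0.43), but DMSO at 6 h with Thiamet-G at 8 h gave 0.38, above the matched values of 6 and 8 h (0.16 and 0.20). A single time has no test. The number of arrays limits the precision. In simulated data, 67 genes were set to change by 0.3, 67 by 0.6 and 66 by 1.2. The test of the mean over 2 to 24 h recovered 68.7%, 95.5% and 100% of them, and 3.83% of its calls were false. These sizes were tested together, so the recovery at 0.3 also depends on the larger changes. Real differences varied between times, so these shares do not tell how many real changes were missed.

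The genes named were the 5 of smallest p in each direction for the mean, the 3 for the slope, up to 3 brighter genes per onset time and direction, up to 3 per list by mean difference and 2 by the difference at 24 h, the 6 largest changes per direction at 48 h, and a fixed set with OGA, OGT, NRF2 genes, ATF3 and CITED2. CXCL1, IL6, RIF1, FGFR3, IL7R, RASGRP3, TAF12, TFEC, TRIM52 and ZNF154 fall outside this rule and were named after their values were seen. The members, lists and rules were chosen with earlier results of these data known. The mean, the slope, the 48 h test and the contrast of inhibitors were also computed without genes dimmer than percentile 40. They were repeated after median centring, after quantile normalization and with the mean of probe sets. Probe sets of shared sequence were also left out, and trend and robust variance was used. Fewer arrays, other blocks, and leaving out each time or replicate were used for those tests where they applied. The effect at 48 h minus 2 to 24 h was repeated only after median centring and quantile normalization. Counts of onset and of 1.5-fold differences were repeated after both scalings and without dim genes, and onset counts also at other thresholds. Both scalings of the early medians of the 48 h genes were added after seeing the data.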

Additional observations from a re-analysis of the deposited data

Results flagged for a closer look

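EGR1, FOS and ID4 were lower with Thiamet-G at all 5 times of 2 to 24 h and higher in every array at 48 h. They were picked by this pattern from a chosen set of genes, and the share of all genes with the pattern was not counted. Of all genes, 537 (4.49%) were lower at all 5 times. The 48 h difference was 0.36 for EGR1, 0.26 for FOS and 0.12 for ID4, and the early means were -0.45, -0.52 and -0.33. The test of the difference between both effects did not pass (adjusted p = 0.365, 0.611 and 0.694, limma), and FOS and ID4 were not called at 48 h (adjusted p = 0.119 and 0.241, limma).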

How the results depend on the processing

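For 36 named genes, 511 of 539 alternative values of the mean over 2 to 24 h kept their direction and side of the threshold, 23 now passed and 5 reversed, for KEAP1, GCLM and TXNRD1, all near 0. KEAP1 was -0.011 after quantile normalization. Leaving out a time gave KEAP1 -0.0053 to 0.017, GCLM -0.051 to 0.021 and TXNRD1 -0.055 to 0.019. Without dim genes the calls were 10 for the mean, 954 at 48 h and 166 against 5SGlcNAc, and with trend and robust variance 20, 925 and 180. At 48 h, median centring gave 240, only the 2 groups 128 and leaving out a replicate 100 to 683. The replicate block gave 187, but the numbers did not pair the samples, since same-numbered DMSO and Thiamet-G arrays deviated with r of -0.06, -0.33 and 0.02. Against 5SGlcNAc, leaving out a time gave 0 to 9. The effect at 48 h minus 2 to 24 h gave 1 after quantile normalization.

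Onset counts followed the threshold. At 0.2 they were 2 higher and 3 lower at 2 h, 14 and 17 at 4 h, 38 and 27 at 6 h, 184 and 193 at 8 h and 1277 and 1162 at 24 h. At 0.5 they were 0 and 0 at 4 h, 0 and 1 at 6 h, 1 and 3 at 8 h and 106 and 68 at 24 h. Without dim genes they were 3 lower at 4 h, 3 higher at 6 h, 20 and 13 at 8 h and 83 and 254 at 24 h, and genes past 1.5-fold were 1, 4, 41, 2, 16 and 13 at 0, 2, 4, 6, 8 and 24 h, since fewer genes remain. Quantile normalization gave 4 higher at 4 h and 5 lower at 6 h, and median centring 2 higher at 4 h. Median centring turned the 2 h median of genes lower at 48 h to 0.020. The causes of the other moves were not tested. Each early time rests on 1 array per treatment, so that differences near those of the 0 h pair cannot be told from noise.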
